A study of Mus musculus with 6 samples.

Results

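A set of 10 genes that mark endothelial cells was followed in the irradiated mouse jejunum: Kdr, Flt1, Tek, Tie1, Eng, Cdh5, Pecam1, Esam, Cldn5 and Vwf. They were taken as the array spots whose gene name is 1 of these 10 symbols, which gave 12 probes among the 55681 non-control probes of the array. All probes of a gene were kept apart. The array was a 1-colour Agilent oligonucleotide array with probes of 60 bases, read on 6 arrays, 1 per mouse.

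All 6 mice were male C57BL/6J mice whose age the labels do not give, and all of them received 9 Gy of radiation. The 3 vehicle mice were dosed into the stomach with the carrier alone. The 3 VND3207 mice received VND3207, known from the labels only by this code name, at 100 mg/kg by the same route. Radiation followed the dose after 0.5 h, and the jejunum was taken 6 h after radiation. The comparison therefore asks how endothelial transcripts in the irradiated jejunum differed between mice given the compound and mice given the vehicle. Mice without radiation were not analysed here, and these values therefore hold no measure of what radiation did.

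Endothelial cells line the inside of blood and lymph vessels. Their growth and survival are steered by vascular endothelial growth factor (VEGF), which signals mainly through Kdr, and by the angiopoietins, which signal through Tek. The cells are held together by VE-cadherin (Cdh5), claudin-5 (Cldn5) and adhesion molecules of the immunoglobulin family (Pecam1, Esam), and in the villus their capillaries carry away much of the absorbed food. In whole jejunum the endothelium is a minor cell type. In such bulk tissue fewer endothelial cells and less RNA per cell cannot be told apart.

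Each level below is the log2 processed signal of a probe minus the 75th percentile of its array, so that a level of 0 lies at that percentile. Levels of different probes are not comparable, since probes differ in how strongly they bind. Differences are VND3207 minus vehicle and were tested with limma across all 36095 probes that 3 or more of the 6 arrays read well above background, which are called the kept probes. A probe is called where the Benjamini-Hochberg adjusted p is under 0.05. The labels describe 3 separate mice per group, so the p-values measure the spread between these mice. All vehicle arrays lay on slide 1 in scan 1 and all VND3207 arrays on slide 2 in scan 2, and the effects of slide, scan and compound cannot be told apart.

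Across all 36095 probes 15.5% were called, with 0.925% higher and 14.6% lower in the VND3207 mice, and the median difference was -0.06. This split moved with the processing. Of the calls, 5.97% were higher, against 20.7% after quantile normalization and 31.9% after a correction of each array for smooth trends along spot row, spot column, signal and GC content of the probe, called the trend correction below. The median difference of all probes was then 0.03 under both. Differences also followed GC content, from a median of 0.06 at 35% GC or less to -0.36 above 55% GC. The share of spots that read well above background was 66.7% to 70.0% per vehicle array against 58.8% to 61.4% per VND3207 array, and 0 spots were saturated.

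Of the 12 endothelial probes, 11 were well above background on all 6 arrays, and every one of the 10 genes had at least 1 such probe. The other was a second Flt1 probe, well above background on 0 of the 6 arrays. Of the 11, 1 was called higher, 2 were called lower and 8 were not called. Those 3 calls of 11 stand beside 15.5% for all probes, and the 2 lower calls beside 14.6%. The probe called higher and 1 of the 2 called lower belong to the same gene, Kdr. The other lower call was Pecam1. The groups did not overlap on 4 of the 11 probes, beside 34.2% of all probes. On 2 of the 4 the VND3207 arrays lay above, beside 9.41% of all probes, and on 2 below, beside 24.8%.

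**Figure D1:**
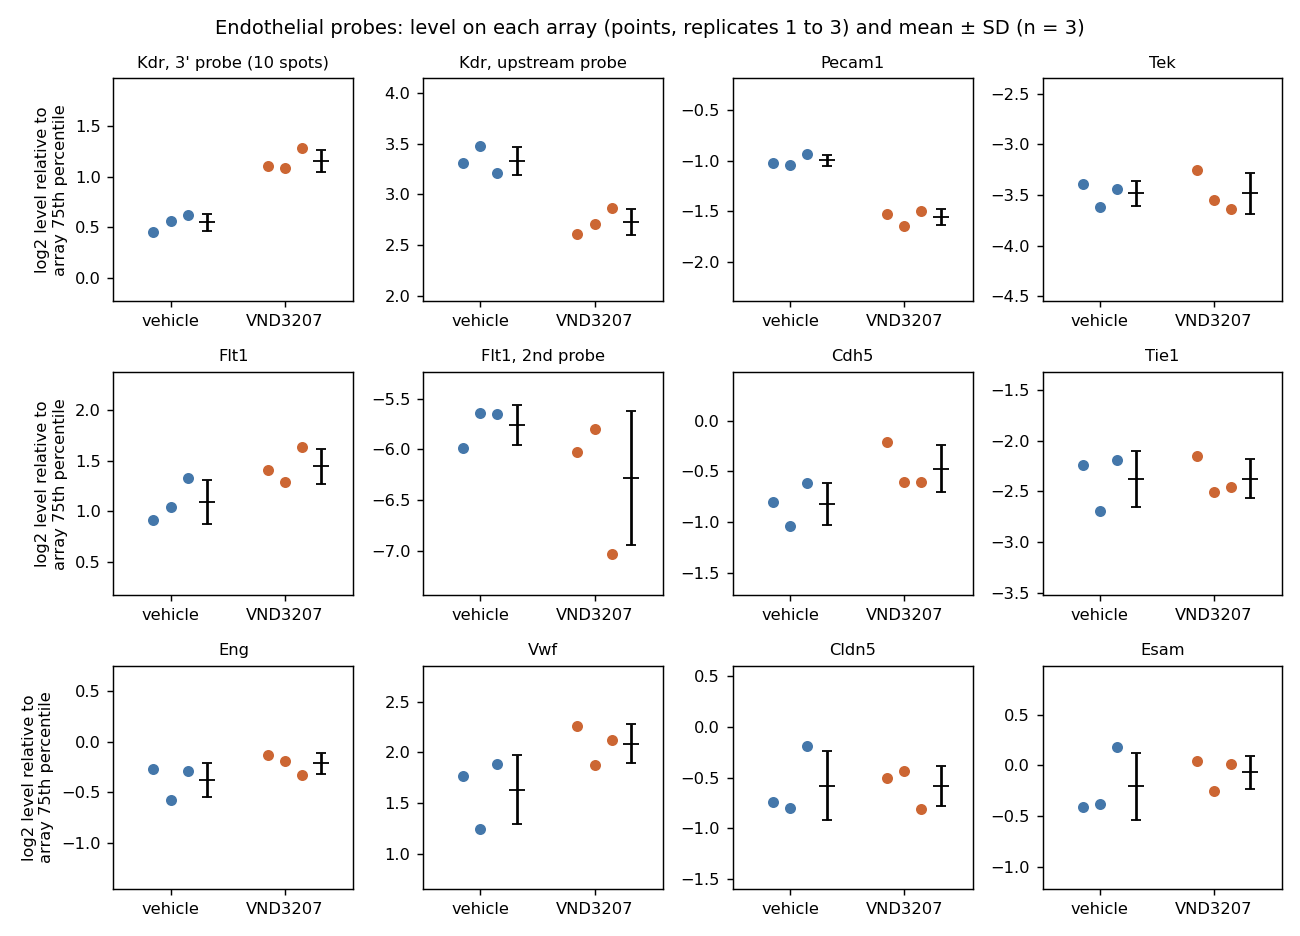
Level of each of the 12 endothelial probes on each array, as log2 processed signal relative to the 75th percentile of the array, with vehicle arrays in blue, VND3207 arrays in orange and the mean ± SD of 3 arrays as black bars. Every panel spans the same number of log2 units from a different start. The groups stand apart on both Kdr probes, in opposite directions, and on Pecam1, and the closest non-overlapping values are those of Cdh5.

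Kdr encodes the main signalling receptor for VEGF-A on endothelial cells. On its probe nearer the 3′ end of the transcript, A_51_P316553, the vehicle arrays read 0.46, 0.57 and 0.63 and the VND3207 arrays 1.11, 1.09 and 1.28. All VND3207 arrays lay above all vehicle arrays. The mean rose from 0.55 ± 0.09 to 1.16 ± 0.11 (SD, n = 3 each), a difference of 0.61 (SE 0.11, 95% interval 0.35 to 0.87), or 1.52-fold (limma adjusted p = 0.014). The probe is printed on the array 10 times, at rows from 20 to 368. Each of the 10 spots was higher in the VND3207 mice, by 0.55 to 0.67, and the SD of the spots within an array was 0.04 to 0.07. These spots share 1 sequence and 1 RNA sample per array, so they describe the precision of the reading and are not replicates. Probes of the same GC content, 35%, had a median difference of 0.05. The call was kept after quantile normalization (0.59, adjusted p = 0.0229) and the trend correction (0.49, adjusted p = 0.0457), and it was lost without vehicle replicate 2 (0.62, adjusted p = 0.0553).

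The second Kdr probe, A_55_P2094469, lies 1086 bases upstream of the first in the transcript and is printed once. It read 3.31, 3.47 and 3.21 on the vehicle arrays and 2.61, 2.70 and 2.87 on the VND3207 arrays. Here all VND3207 arrays lay below all vehicle arrays. The mean fell from 3.33 ± 0.14 to 2.73 ± 0.13, a difference of -0.60 (SE 0.12, 95% interval -0.90 to -0.30, n = 3 each, limma adjusted p = 0.0223). Probes of the same GC content, 55%, had a median difference of -0.21. The probe was called lower after quantile normalization (-0.62, adjusted p = 0.0179) and after the trend correction (-0.47, adjusted p = 0.039). It was not called without vehicle replicate 1 (-0.61, adjusted p = 0.0605), vehicle replicate 2 (-0.53, adjusted p = 0.0801), VND3207 replicate 1 (-0.55, adjusted p = 0.0791) or VND3207 replicate 2 (-0.59, adjusted p = 0.0778).

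Both probes are shown because they gave opposite differences for 1 gene. The sequences are those of the array files, written 5′ to 3′ in the sense of the transcript, with G and C in capitals. On the mm9 build of the files both lie on the minus strand of chromosome 5, the upstream probe at chr5:76330395-76330454 and the 3′ probe at chr5:76329309-76329368. The distance between them is 1086 bases in the genome as in the transcript. Of the 3′ probe, the first 30 of its 60 bases are given. No gene model of mm9 was used here, so neither probe was placed in coding sequence or UTR.
Kdr upstream probe: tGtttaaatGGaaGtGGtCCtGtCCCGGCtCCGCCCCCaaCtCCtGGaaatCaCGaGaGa
Kdr 3′ probe: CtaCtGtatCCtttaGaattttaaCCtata

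The level of the 3′ probe minus that of the upstream probe was -2.85, -2.91 and -2.58 on the vehicle arrays. On the VND3207 arrays it was -1.50, -1.61 and -1.58. This gap was smaller by 1.21 on the VND3207 arrays, which is the sum of the opposite differences above and no further result. Of 4501 genes with more than 1 kept probe, 643 had at least 1 probe called and 7, or 0.156%, had probes called in both directions, Kdr among them. No direction for Kdr as a whole was therefore drawn. What sets the probes apart was not tested.

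**Figure D2:**
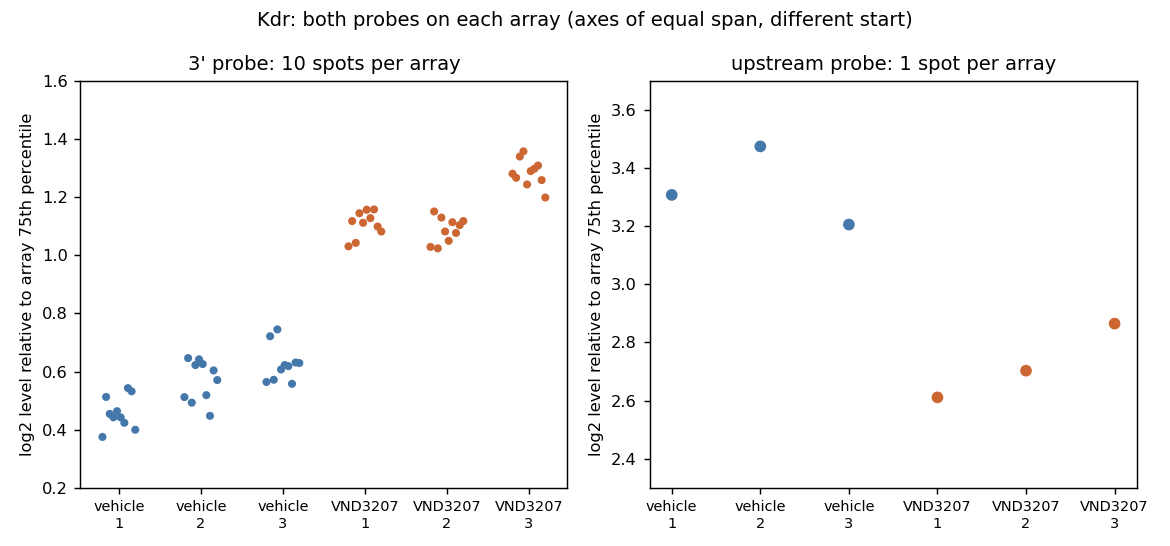
Kdr on each array, with the 10 spots of the 3′ probe on the left and the single spot of the upstream probe on the right, as log2 level relative to the 75th percentile of the array. Both axes span the same number of log2 units from different starts. On the left every VND3207 spot lies above every vehicle spot, and on the right every VND3207 array lies below every vehicle array.

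Flt1 encodes the other VEGF-A receptor of these cells, which binds the ligand tightly and signals weakly. Its probe read 0.91, 1.04 and 1.33 on the vehicle arrays and 1.41, 1.29 and 1.64 on the VND3207 arrays. VND3207 replicate 2 lay below vehicle replicate 3, so the groups overlapped. The difference was 0.35 (SE 0.16, 95% interval -0.03 to 0.73) and was not called (limma adjusted p = 0.217). The second Flt1 probe read from -5.99 to -5.64 in the vehicle group and from -7.04 to -5.79 in the VND3207 group and was not tested.

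Tek encodes Tie2, the receptor of the angiopoietins, and Tie1 encodes its close relative, which binds no angiopoietin directly and modulates Tek. Tek read -3.39, -3.62 and -3.44 on the vehicle arrays and -3.26, -3.55 and -3.64 on the VND3207 arrays. Tie1 read -2.25, -2.69 and -2.20 against -2.16, -2.51 and -2.46. On both probes the groups overlapped. The Tek difference was 0.00 (SE 0.14, 95% interval -0.34 to 0.34, limma adjusted p = 0.997) and the Tie1 difference was 0.00 (SE 0.18, 95% interval -0.43 to 0.44, limma adjusted p = 0.997). After the trend correction they were 0.46 (adjusted p = 0.114) and 0.23 (adjusted p = 0.471), neither called. Both intervals extend well to either side of 0, so the values do not show that these receptors stayed level.

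The Tek and Tie1 probes are printed because both genes belong to 1 receptor family and their probes lie over matching stretches. The Tek probe lies on the plus strand at chr4:94540624-94540683 and the Tie1 probe on the minus strand at chr4:118144132-118144191 (mm9). Aligned with the Tie1 probe starting 3 bases earlier, 39 of 57 bases are shared, or 68.4%. Shared bases are in capitals.
Tek probe: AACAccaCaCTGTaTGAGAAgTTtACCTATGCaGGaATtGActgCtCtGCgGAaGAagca
Tie1 probe: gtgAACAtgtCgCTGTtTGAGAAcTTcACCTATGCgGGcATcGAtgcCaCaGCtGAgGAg

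Eng encodes endoglin, a co-receptor for ligands of the BMP and TGF-beta family on endothelial cells. It read -0.27, -0.57 and -0.29 on the vehicle arrays and -0.13, -0.19 and -0.33 on the VND3207 arrays. The groups overlapped, with vehicle replicate 2 the lowest array. The difference was 0.16 (SE 0.13, 95% interval -0.14 to 0.47, limma adjusted p = 0.484), and 0.47 after the trend correction (adjusted p = 0.096).

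Pecam1, the adhesion molecule CD31 of endothelial contacts, which platelets and many leukocytes also carry, read -1.02, -1.04 and -0.93 on the vehicle arrays. On the VND3207 arrays it read -1.53, -1.64 and -1.49. All VND3207 arrays lay below all vehicle arrays. The mean fell to -1.56 ± 0.08, a difference of -0.56 (SE 0.10, 95% interval -0.79 to -0.32, n = 3 each, limma adjusted p = 0.0135). The probe was spotted 2 times, and the spots differed by -0.66 and -0.45. Probes of its GC content, 50%, had a median difference of -0.19. After quantile normalization the difference was -0.46 (adjusted p = 0.0332). It was -0.26 and no longer called after the trend correction (adjusted p = 0.171), and it was not called without VND3207 replicate 2 (-0.51, adjusted p = 0.053). The probe lies on the minus strand at chr11:106540864-106540923 (mm9) and is shown, with G and C in capitals, as the 1 adhesion gene that was called.
Pecam1 probe: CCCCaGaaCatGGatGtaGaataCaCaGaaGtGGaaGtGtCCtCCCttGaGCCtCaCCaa

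Cdh5, VE-cadherin, is the cadherin that endothelial adherens junctions are built on. It read -0.81, -1.04 and -0.62 on the vehicle arrays and -0.21, -0.60 and -0.61 on the VND3207 arrays. All VND3207 arrays lay above all vehicle arrays, with VND3207 replicates 2 and 3 just above vehicle replicate 3. The difference was 0.35 (SE 0.17, 95% interval -0.06 to 0.76) and was not called (limma adjusted p = 0.258). Its sign is opposite to that of Pecam1.

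Esam, a junctional adhesion molecule that platelets also carry, read -0.42, -0.38 and 0.17 on the vehicle arrays and 0.04, -0.26 and 0.01 on the VND3207 arrays. Its difference was 0.14 (SE 0.19, 95% interval -0.33 to 0.61, limma adjusted p = 0.712), and -0.06 after the trend correction. Cldn5, the main claudin of endothelial tight junctions, read -0.74, -0.80 and -0.19 against -0.50, -0.44 and -0.81. On both probes the groups overlapped and vehicle replicate 3 was the highest of the 6 arrays. The Cldn5 difference was 0.00 (SE 0.20, 95% interval -0.49 to 0.49, limma adjusted p = 0.992), and its sign turned with the normalization.

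Vwf encodes von Willebrand factor, the large glycoprotein that endothelial cells store and release to tether platelets. It read 1.77, 1.24 and 1.88 on the vehicle arrays and 2.26, 1.88 and 2.12 on the VND3207 arrays. VND3207 replicate 2 lay just below vehicle replicate 3, so the groups overlapped. The difference was 0.45 (SE 0.20, 95% interval -0.04 to 0.95, limma adjusted p = 0.218), and 0.68 after the trend correction (adjusted p = 0.123).

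**Figure D3:**
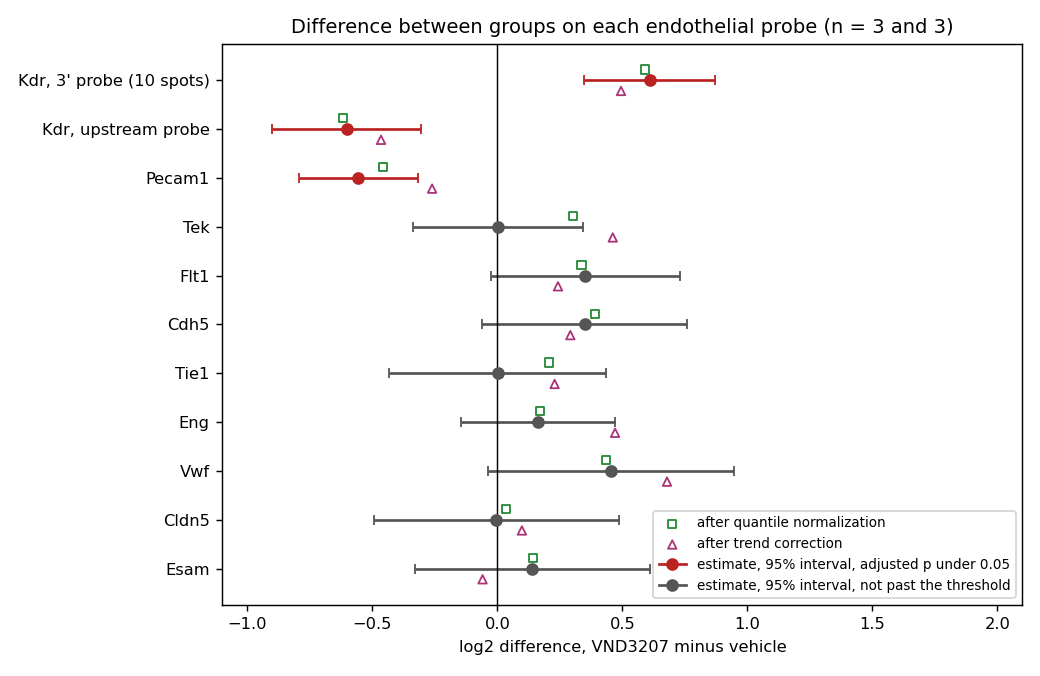
Difference between the groups (VND3207 minus vehicle, log2, n = 3 each) on each of the 11 endothelial probes tested, with its 95% interval from limma, in red where the adjusted p is under 0.05. Open squares give the difference after quantile normalization and open triangles after the trend correction. The Kdr probes lie on opposite sides of 0 in each of these, and Pecam1 moves towards 0 under the trend correction.

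Within the groups, the same mice tended to be low or high across the 11 probes. Vehicle replicate 2 was the lowest of its group on 7 of the 11 probes and vehicle replicate 3 the highest on 8. Their median deviations from the group mean were -0.18 and 0.18, against -0.02 for vehicle replicate 1. Among the VND3207 arrays replicate 1 was the highest on 6 probes and replicate 2 the lowest on 6. Likeness was measured to the mean over the brightest probe of each of the 10 genes, over the 6 arrays after the group means were subtracted. The most alike probes were those of Gata2 and Hfe (Pearson r 0.997 each), Tbc1d16 and Emid1 (0.995 each) and C1ra (0.993). These were the 5 highest among all kept probes of named genes outside the 10, and they are given as a description. With 6 arrays and so many probes, r values this high can arise without any link to the endothelial genes. Gata2 is also in the endothelial transcription factor list used below.

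The median difference of the 11 endothelial probes was 0.14, where that of all probes was -0.06. Probes within 0.25 log2 units of a member probe's mean level are a closer background. Their median difference ran from -0.229 at the level of Tek to 0.054 at that of Vwf. It was 0.015 or more at each member level except those of Tek, Tie1 (-0.115) and Pecam1 (-0.0068). Of the 11, 8 were above 0, beside 41.9% of all probes, but the 8 include Tek and Tie1, whose differences were 0.00 and changed sign with some arrays left out. The median of the 11 was 0.21 after quantile normalization and 0.24 after the trend correction.

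The other genes of the endothelial pathways were taken as 9 lists holding 103 genes, of which 95 had a kept probe. On the brightest probe of each, 1 gene was called higher, 1 lower and 93 were not called, beside 15.5% of all probes called. Of the 95, 67 (70.5%) were above 0, with a median of 0.13, beside 41.9% and -0.06 for all probes. The 95 genes were not set against probes of like level. After quantile normalization the shares were 76.8% of the list and 54.4% of all probes, and after the trend correction 74.7% and 53.6%. By list the median ran from -0.04 for adhesion and leukocyte recruitment genes to 0.20 for coagulation and haemostasis genes.

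Angpt2, the angiopoietin that endothelial cells make and that mostly opposes Angpt1 at Tek, was the gene called higher. It read -1.51, -1.80 and -1.35 on the vehicle arrays and -0.41, -0.83 and -1.03 on the VND3207 arrays. All VND3207 arrays lay above all vehicle arrays. The difference was 0.80 (SE 0.20, 95% interval 0.31 to 1.29), or 1.74-fold (limma adjusted p = 0.0471). It was 0.89 after quantile normalization (adjusted p = 0.0415) and 0.65 after the trend correction, where it was not called (adjusted p = 0.0933). Of the 6 arrays left out in turn, only leaving out VND3207 replicate 3 kept the call (0.94, adjusted p = 0.0378). The adjusted p was 0.102 without vehicle replicate 1, 0.144 without vehicle replicate 2, 0.0722 without vehicle replicate 3, 0.104 without VND3207 replicate 1 and 0.111 without VND3207 replicate 2, with differences from 0.63 to 0.90.

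Bmp10, a circulating ligand of the receptor complex that endoglin belongs to, was the gene called lower. It read -1.88, -2.17 and -1.84 on the vehicle arrays and -3.67, -3.42 and -3.23 on the VND3207 arrays. The groups were far apart. The difference was -1.48 (SE 0.16, 95% interval -1.86 to -1.09, limma adjusted p = 0.0032), -1.24 after quantile normalization (adjusted p = 0.0087) and -1.03 after the trend correction (adjusted p = 0.0162). It was called with each array left out in turn.

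The other ligands of the receptors above were not called. Vegfa, the ligand of Kdr and Flt1, read 2.68, 2.50 and 2.62 on the vehicle arrays and 2.89, 2.68 and 2.97 on the VND3207 arrays, the lowest VND3207 array just above the highest vehicle array. Its difference was 0.25 (SE 0.12, limma adjusted p = 0.251), and 0.48 on its other probe (adjusted p = 0.101). Vegfb, a ligand of Flt1 and not of Kdr, was at -0.33 (SE 0.14, adjusted p = 0.213), and placental growth factor Pgf, also a Flt1 ligand, at -0.02 (SE 0.22, adjusted p = 0.964). Angpt1, the activating ligand of Tek, was at -0.04 (SE 0.21, adjusted p = 0.933) and was well above background on 1 of the 3 VND3207 arrays. Of further ligands, added with their values in view, Vegfc was at 0.09 (adjusted p = 0.769), Vegfd at 0.13 (adjusted p = 0.904) and Angpt4 at 0.42 (adjusted p = 0.498). Gdf2, which like Bmp10 binds the endoglin complex, had no kept probe.

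In the lists with no call, the 2 brightest genes of each were examined. The VE-cadherin partners Ctnnd1 and Ctnnb1, the p120 and beta catenins that other cell types share, were at 0.14 (adjusted p = 0.417) and 0.13 (adjusted p = 0.45). Thbd, thrombomodulin of the vessel surface, was at 0.32 (adjusted p = 0.211), and Stab1, a scavenger receptor, at 0.18 (adjusted p = 0.352). Klf4 and Foxo1 of the transcription factor list were at -0.08 (adjusted p = 0.76) and 0.06 (adjusted p = 0.721). These 2 do not stand for their list, where 11 of 12 kept genes were above 0, the median was 0.197 and 0 were called. Mcam and Mmrn2 of the pan-endothelial list were at -0.06 (adjusted p = 0.913) and 0.15 (adjusted p = 0.572), and the VEGF co-receptor Nrp2 was at -0.01 (adjusted p = 0.981). F11r and Cd151 of the adhesion list, both also made by epithelium, were at -0.17 (adjusted p = 0.421) and 0.07 (adjusted p = 0.84). The receptor Notch1 was at 0.07 (adjusted p = 0.871). The arterial ephrin Efnb2 was at 0.16 on its brightest probe (adjusted p = 0.567), while its other probe fell by 0.74 on the log2 scale (adjusted p = 0.0136).

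Quantile normalization called 4 of the 95 genes, beside 11.4% of all probes, and the trend correction also called 4, beside 8.59%. Under quantile normalization Nrarp (0.46, adjusted p = 0.0382), a Notch target, and Apln (0.62, adjusted p = 0.0425), the apelin ligand of sprouting vessels, joined Angpt2 and Bmp10. Under the trend correction Apln (0.68, adjusted p = 0.0396), Plvap (0.49, adjusted p = 0.0479), the diaphragm protein of fenestrated capillaries, and Jup (0.59, adjusted p = 0.0308), plakoglobin, joined Bmp10. Nrarp, Apln, Plvap and Jup were named after their values were seen.

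**Figure D4:**
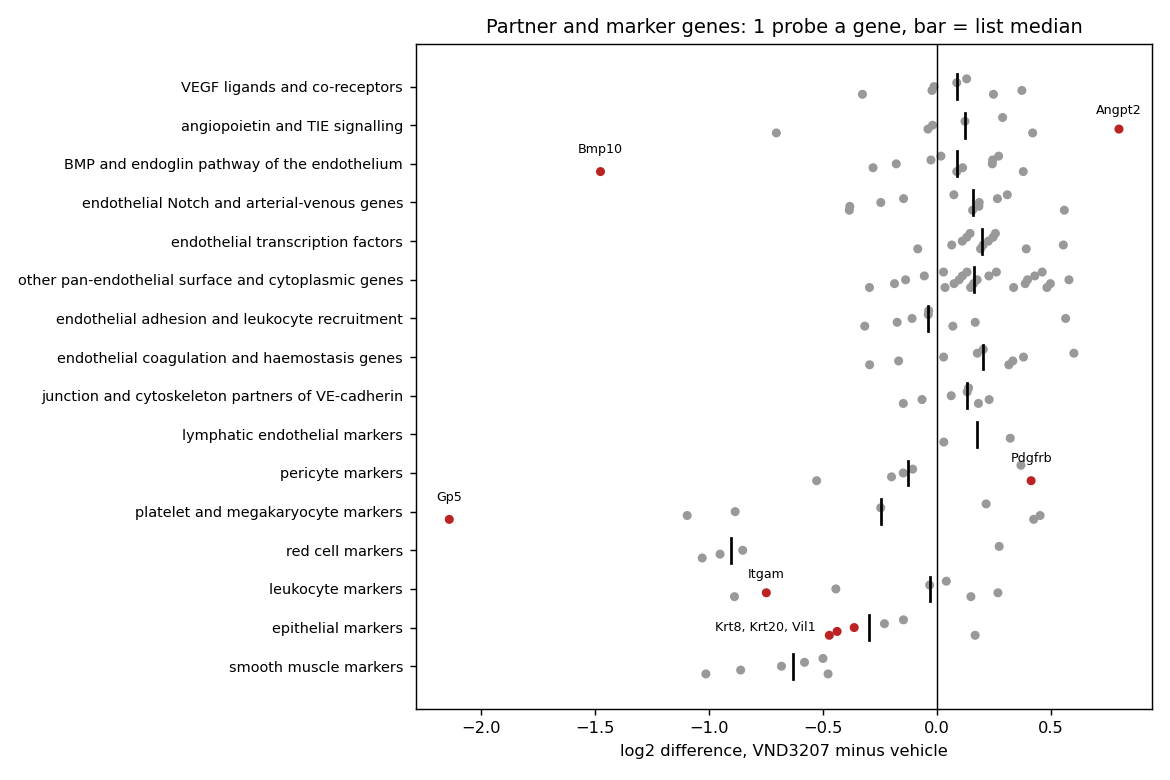
Difference between the groups (VND3207 minus vehicle, log2, n = 3 each) for each gene of the 9 endothelial pathway lists and 7 marker lists, 1 probe a gene, with the list median as a black bar and genes of adjusted p under 0.05 in red. In the pathway lists Angpt2 and Bmp10 are the genes in red. Gp5, Gp6 and Treml1 are drawn at their measured values, although none of the VND3207 arrays read them well above background.

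Markers of other cells moved with the groups to differing degrees. Of 6 epithelial markers, 3 were called lower, beside 14.6% of all probes, and the median difference of the list was -0.30. Called were the keratin genes Krt8 (-0.47, adjusted p = 0.0406) and Krt20 (-0.44, adjusted p = 0.0424) and the villin gene Vil1 (-0.36, adjusted p = 0.0488). The others, named with their values in view, were Epcam (-0.23, adjusted p = 0.373), Cdx2 (-0.15, adjusted p = 0.868) and Cdh1 (0.17, adjusted p = 0.356). On Cdh1 all VND3207 arrays lay above all vehicle arrays. As a deviation from the 6-array mean, the list stood at 0.08 to 0.27 in the vehicle mice and at -0.21 to -0.16 in the VND3207 mice. After quantile normalization none of the 6 was called and the median was -0.05. Each of these 3 calls was lost in at least 5 of the 6 cases with 1 array left out. For a tissue labelled jejunum, all 6 epithelial markers had a kept probe.

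Beside the fall of Pecam1, which platelets and leukocytes also carry, stand the values of those cells. Of 10 platelet and megakaryocyte markers 7 had a kept probe and 1 was called lower, beside 14.6% of all probes. This was Gp5, at least 1.3-fold lower by group means in the VND3207 mice (limma adjusted p = 0.00251). It was called after quantile normalization (adjusted p = 0.00983) and not after the trend correction (adjusted p = 0.316). The brightest of them, Itgb3 (0.22, adjusted p = 0.374) and Pf4 (0.42, adjusted p = 0.489), were not called. The other Itgb3 probe was at -0.65 (adjusted p = 0.403). Treml1 and Gp6, like Gp5, were well above background on none of the VND3207 arrays. They were at least 1.26-fold (adjusted p = 0.0663) and 1.47-fold (adjusted p = 0.285) lower and were not called. Of the 7 kept, 3 were above 0. These uncalled genes were chosen with their values in view. The list ran from -0.05 to 0.23 in the vehicle mice and from -0.26 to 0.05 in the VND3207 mice. Its median difference was -0.25, but 0.09 after quantile normalization and 0.19 after the trend correction. Of 7 leukocyte markers 1 was called lower, again beside 14.6% of all probes. This was Itgam at -0.75 (adjusted p = 0.0421), whose other probes were at -0.47 (adjusted p = 0.0832) and 0.55 (adjusted p = 0.101). Its call was lost with each array left out. The leukocyte list ran from 0.07 to 0.37 in the vehicle mice and from -0.23 to 0.16 in the VND3207 mice. Of its 7 genes 3 were above 0. The median difference of the leukocyte list was -0.03, and 0.02 after quantile normalization and after the trend correction. The part of platelets and leukocytes in the Pecam1 difference was not tested.

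Pericytes wrap the capillaries. Their marker Pdgfrb was called higher (0.41, SE 0.10, limma adjusted p = 0.0409), and the call was lost with each array left out. No other of the 6 pericyte markers was called, where 15.5% of all probes were called and 0.925% were called higher. The median of the list was -0.13, with VND3207 replicate 3 at -0.73. That array also stood apart in smooth muscle, where it lay at -1.85 and the other 5 arrays at 0.17 to 0.58, and 0 of 6 smooth muscle markers were called, with the brightest, Tagln and Actg2, at -0.48 (adjusted p = 0.629) and -0.86 (adjusted p = 0.491). Without it the Kdr probes and Pecam1 were still called. Of 5 lymphatic endothelial markers, Lyve1 and Pdpn had a kept probe, at 0.32 (adjusted p = 0.312) and 0.03 (adjusted p = 0.886), and Prox1, the defining factor of lymphatic endothelium, did not. The other Pdpn probe fell by 0.70 on the log2 scale (adjusted p = 0.0163). Of 7 red cell markers 4 were kept and 0 were called, with the globin genes Hba-a1 and Hbb-bt at -0.95 (adjusted p = 0.351) and -1.03 (adjusted p = 0.3). Slc4a1, the red cell anion exchanger, chosen with its values in view, was at 0.27 (adjusted p = 0.157), with all VND3207 arrays above all vehicle arrays. It was called higher after quantile normalization (0.58, adjusted p = 0.026) and the trend correction (0.57, adjusted p = 0.0348). The list stood at 1.41 on vehicle replicate 1 and at -1.27 on VND3207 replicate 2. Whether these marker differences reflect tissue make-up was not tested, and neither was their part in the endothelial values.

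**Figure D5:**
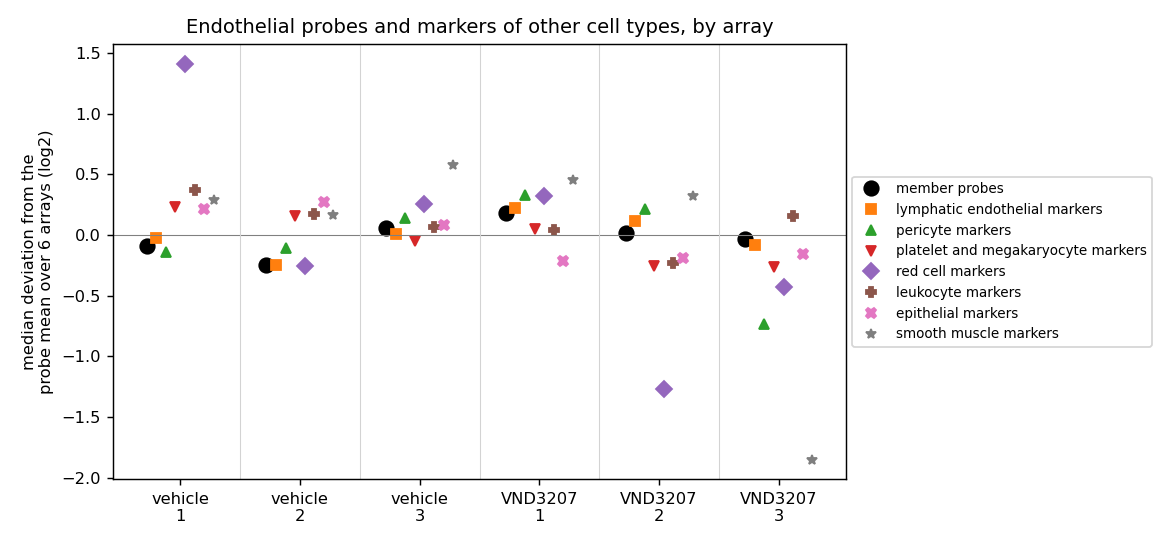
Median deviation of each marker list from its probes' means over 6 arrays (log2), by array, with the 11 endothelial probes as black circles. The median of the endothelial probes stays between -0.24 and 0.18, although single probes deviate further and in opposite directions. The median of the red cell list reaches 1.41 on vehicle replicate 1 and that of the smooth muscle list -1.85 on VND3207 replicate 3.

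The remaining probes lie, on mm9, at chr5:148373791-148373850 for Flt1 and chr5:148465976-148466035 for the second Flt1 probe, both on the minus strand. Those of Cdh5 (chr8:106668159-106668218), Eng (chr2:32537268-32537327), Vwf (chr6:125636551-125636610), Cldn5 (chr16:18778046-18778105) and Esam (chr9:37345795-37345854) lie on the plus strand.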

How the data were processed

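Jejunum RNA of 6 mice was measured on 6 arrays, and groups were taken from the labels. Spots were read with Agilent Feature Extraction 10.7.1.1, per the submitters' processing notes. The deposited intensity values used are its processed signal, which is background-subtracted and detrended within an array, per the file headers. The deposited value table holds log2 values with a median of 6.05 on every array, how it was made is not stated, and it served as an alternative. Columns with no matching sample numbered 0.

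The 75th percentile of log2 signal over 59305 non-control spots was subtracted from each array. Controls and outlier spots were dropped, and a probe printed more than once was averaged over its spots. A probe was kept if it was well above background on at least 3 of 6 arrays. Differences were fitted with limma 3.58.1 (lmFit and eBayes, group only, two-sided) under R 4.3.3, and p was adjusted by Benjamini-Hochberg over 36095 probes with a threshold of 0.05. The fit was tested on simulated data. Of the kept probes, 29 lacked a value on some array, none of them a member probe.

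Where every array of a group read a gene at background, its fold is a lower bound on the difference of the group means. It was taken against the lowest signal called well above background and takes no account of the spread between mice. The trend correction used smooth terms in mgcv 1.9.3 and can remove part of a true difference.

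The members, lists and alternatives were chosen with earlier results of these data known. All member probes were named. From each other list, up to 4 called genes or else up to 2 of the brightest were named, with the ligands Vegfa, Vegfb, Pgf, Angpt1 and Angpt2 always named, and the 5 probes most like the members.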

Additional observations from a re-analysis of the deposited data

How the results depend on the processing

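The alternatives were quantile normalization, normexp background correction (offset 50), the deposited table, no filter and a stricter filter on dim probes, 1 probe per gene, a mean-variance trend, weighted arrays, a replicate block, the trend correction and each array left out. All were run for all probes and the member probes, and only quantile normalization, the trend correction, the replicate block and arrays left out for the pathway lists. Of all probes 5592 were called (334 higher, 5258 lower). The count was 3173 with normexp, 3204 with probes well above background on all arrays, 3553 with the replicate block, 3102 with the trend correction, and 3127 to 5357 with 1 array left out. Of 3 member calls, 1 was kept with the replicate block and 1 to 3 with 1 array left out. Of 2 pathway calls, quantile normalization and the trend correction gave 4 each. The replicate block gave 1, and leaving out an array gave 1 to 4, both added after seeing the data. The labels do not say whether replicate numbers pair the mice. With the group means subtracted, same-numbered arrays correlated at 0.13, -0.11 and -0.05, which cannot settle this with 3 arrays per group. With the block the upstream Kdr probe stayed at -0.60 (adjusted p = 0.0811) and Pecam1 at -0.56 (adjusted p = 0.0508). Signs turned for values near 0. Cldn5 was at 0.035 with quantile normalization, 0.053 with normexp, 0.043 in the deposited table, 0.052 with weighted arrays and 0.098 with the trend correction, and Esam was at -0.059 with the last. With 1 array left out, Cldn5 ran from -0.12 to 0.19, Tek from -0.11 to 0.080 and Tie1 from -0.16 to 0.093. Causes were not tested. Precision is limited by having 3 arrays per group.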
